A study of Homo sapiens with 24 samples.

Results

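IGF binding proteins are secreted carriers of the insulin-like growth factors. The members described here are IGFBP2, IGFBP3, IGFBP4, IGFBP6 and IGFBP7, 5 genes of 19702 in the count table, matched by symbol through their Ensembl identifiers. They were listed by name, and the list was chosen by measured values: the levels of IGFBP2 and IGFBP3 differed between cell lines and treatments. For those 2 genes the levels and fold changes below are therefore a description with no test, while IGFBP4 and IGFBP6 were tested and IGFBP7 was all but undetected.

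The transcripts of 2 established cell lines, PC9 and H1975, were sequenced; both derive from human lung adenocarcinoma and carry activating EGFR mutations. The cultures were collected after 24 h with almonertinib plus paclitaxel (combination), almonertinib, paclitaxel, or as control, with 3 libraries in each of 8 groups and 24 in all. Almonertinib, a covalent inhibitor of mutant EGFR, was used at 2 nM in PC9 and 1 nM in H1975, and paclitaxel, a taxane that stabilises microtubules, at 0.3 nM in PC9 and 1 nM in H1975. What dose of each drug went into the combination is not given in the labels. In the interactions below, and between the combination and a single drug, drug effect and dose therefore cannot be told apart. A difference between lines is thus one of line and dose together, and each line stands for itself alone. Library totals ran between 14232299 and 24245314 counts, so counting error is small for every member except IGFBP7. All 6 epithelial markers examined (such as EPCAM and KRT8) reached 1 CPM, a count scaled to library size, in both lines and none of 3 immune markers did. The lung lineage factor NKX2-1 averaged at most 1.60 CPM in the PC9 groups and at least 36.4 CPM in the H1975 groups. NAPSA, an aspartic protease gene of alveolar cells, went the other way in controls, with 1.06 CPM in PC9 and 0.5075 CPM in H1975. With treatment it was higher in H1975, at 2.96 CPM against 1.02 in PC9 with the combination. The values were 4.04 against 1.205 CPM with almonertinib and 3.18 against 0.709 CPM with paclitaxel. SFTPB, a surfactant protein gene of alveolar cells, was near 0 in both lines.

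The binding proteins hold IGF1 and IGF2 outside the cell, lengthen their life and limit their access to the receptor IGF1R, whose signal runs through IRS adaptors to PI3K and AKT. Proteases such as PAPPA cut the binding proteins and release the ligand, so a binding protein can restrain or store the growth signal depending on its surroundings. In EGFR-mutant lung cancer cells the pathway is studied because IGF1R can keep PI3K and AKT active when EGFR is blocked. IGFBP3 is the main carrier in blood, IGFBP6 binds IGF2 in preference to IGF1, and IGFBP7 binds the ligands only weakly.

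On GRCh38 (GENCODE release 29) IGFBP2 (ENSG00000115457) lies at chr2:216632828-216664436 on the plus strand, with IGFBP5 on the opposite strand 7668 bases beyond it. IGFBP3 (ENSG00000146674) lies at chr7:45912245-45921874 on the minus strand, 18576 bases from IGFBP1. IGFBP4 (ENSG00000141753) is at chr17:40443461-40457731 and IGFBP6 (ENSG00000167779) at chr12:53097436-53102345, both on the plus strand, and IGFBP7 (ENSG00000163453) at chr4:57030773-57110385 on the minus strand. Counts are per whole gene, exons together, and the strand counted is not given in the sources used here. The 3 promoters below are shown because their genes moved most in PC9: IGFBP3 and its relative IGFBP5 stood higher with every treatment, and IGFBP6 stood lower. Each is the 250 bases before the RefSeq transcription start (GRCh38.p14), 5′ to 3′ on the gene's own strand, with matches to the searched motifs in capitals. The capitals are a TATA-like TATATA in IGFBP3, a TATA-like TATTTAA in IGFBP5, a forkhead-type GTAAACA in IGFBP6, and, in IGFBP3 and IGFBP6, GGGCGG as read on either strand.
IGFBP3, chr7:45921273-45921522, minus strand: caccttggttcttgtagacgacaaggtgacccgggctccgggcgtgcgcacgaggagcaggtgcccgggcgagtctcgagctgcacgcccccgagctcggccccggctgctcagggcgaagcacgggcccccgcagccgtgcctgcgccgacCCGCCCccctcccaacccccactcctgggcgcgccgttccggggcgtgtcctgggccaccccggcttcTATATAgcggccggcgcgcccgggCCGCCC
IGFBP5, chr2:216695550-216695799, minus strand: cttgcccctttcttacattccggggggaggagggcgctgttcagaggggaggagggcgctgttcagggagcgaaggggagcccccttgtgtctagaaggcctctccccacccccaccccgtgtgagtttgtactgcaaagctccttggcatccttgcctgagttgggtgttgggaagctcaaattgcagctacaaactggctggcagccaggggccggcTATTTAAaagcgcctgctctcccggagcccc
IGFBP6, chr12:53097417-53097666, plus strand: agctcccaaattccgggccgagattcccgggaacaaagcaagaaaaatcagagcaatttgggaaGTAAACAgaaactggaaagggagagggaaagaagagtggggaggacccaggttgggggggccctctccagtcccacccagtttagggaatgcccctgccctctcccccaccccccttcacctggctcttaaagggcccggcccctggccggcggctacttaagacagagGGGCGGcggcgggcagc

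The motifs were searched on both strands, and no 2 kinds of match overlapped in these windows. IGFBP3 holds the TATA-like TATATA starting 30 bases before the start, in 3.73% of all 35116 RefSeq promoters of this length, and GGGCGG, the core of the site that SP1 binds, at 98 and 6 bases, in 42.6% of promoters. IGFBP5 holds TATTTAA 31 bases before the start (4.17% of promoters) and no GGGCGG. IGFBP6 holds none of the TATA-like motifs searched but has GGGCGG at 17 bases and the forkhead-type motif GTAAACA at 186 bases (2.98% of promoters). Its RefSeq start lies 222 bases from the start of its principal GENCODE transcript. By the GENCODE gene bounds above, the IGFBP6 window lies inside the gene from base 53097436 on. The IGFBP3 window lies wholly inside its gene, although its RefSeq start is 2 bases from that of its principal transcript. Of the members not shown, IGFBP4 has TATAAA (10.7% of promoters) at 29 bases and GGGCGG at 83 bases, and IGFBP2 has GGGCGG at 49 bases. These are matches of letters and were not tested for binding.

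**Figure D1:**
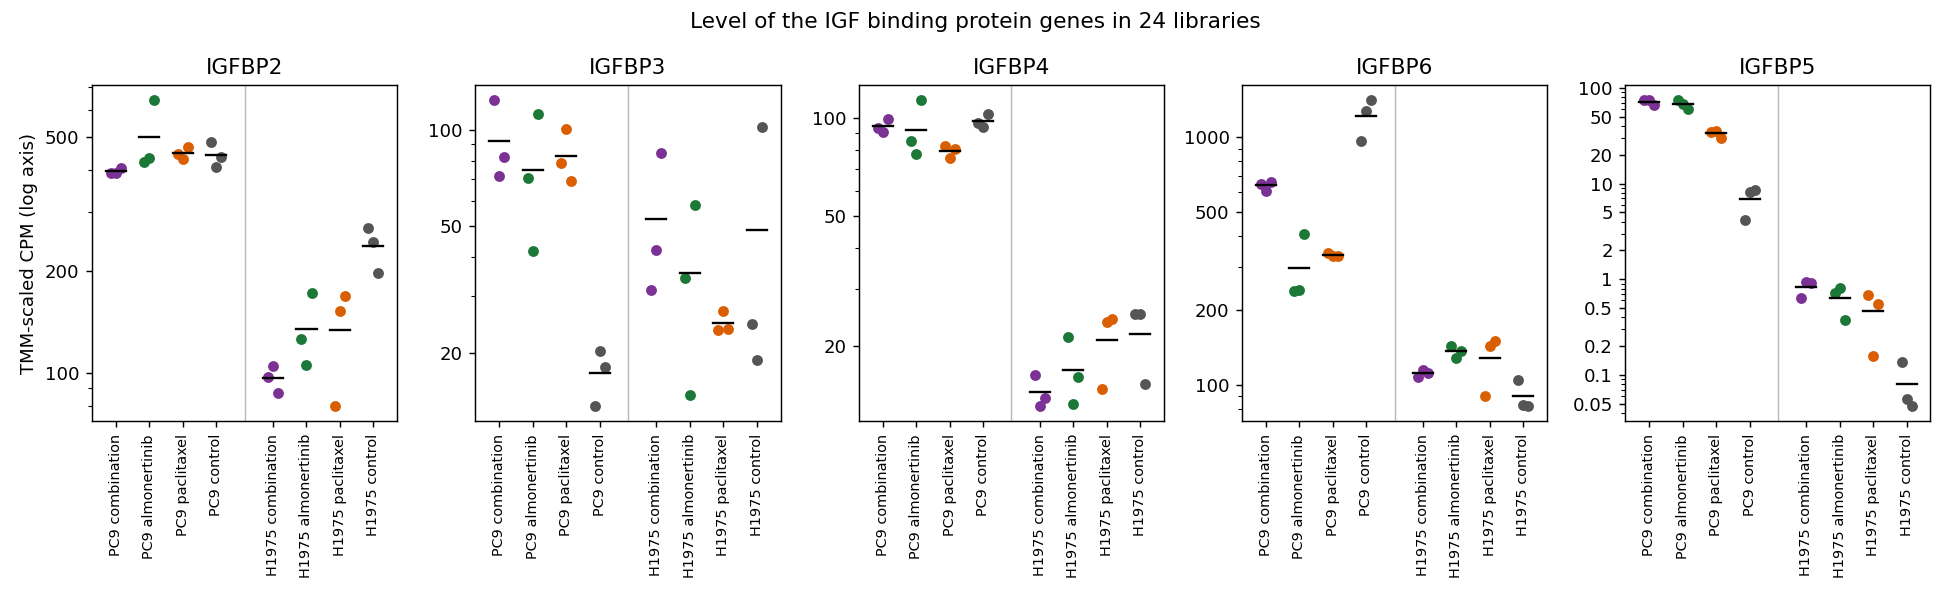
Level of IGFBP2, IGFBP3, IGFBP4, IGFBP6 and IGFBP5 in each of 24 libraries (points; vertical axis, CPM scaled with TMM factors, logarithmic; horizontal axis, the 8 groups), with the mean of 3 libraries as a bar. IGFBP6 is highest in the PC9 controls, IGFBP3 and IGFBP5 are lowest there among PC9 groups, and in H1975 IGFBP2 is highest in the controls.

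IGFBP6, the IGF2-preferring member, fell in PC9 with every treatment and least with both drugs together. It stood at 647, 609 and 661 CPM in the 3 combination libraries, 239.5, 242 and 409 CPM with almonertinib and 339.6, 331 and 331 CPM with paclitaxel, against 963, 1276 and 1411 CPM in control cells. All 9 treated libraries were below all 3 controls, and the combination libraries lay above every single-drug library. The share of all genes separated in these ways is not given here, so nothing is read from the separation itself. Lower levels than in control were common in PC9. By edgeR adjusted p under 0.05 they were found for 26% of all genes tested with the combination, 27.8% with almonertinib and 28% with paclitaxel. In RNA of whole cultures, fewer cells with the transcript and less transcript per cell cannot be told apart.

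The log2 fold change of IGFBP6 in PC9 against control was −0.93 ± 0.17 with the combination (edgeR adjusted p = 0.000281), −2.03 ± 0.18 with almonertinib (adjusted p = 9.48e-08) and −1.88 ± 0.18 with paclitaxel (adjusted p = 6.71e-07), where ± is the standard error (SE) and adjustment is over all genes tested. With the combination IGFBP6 was 1.09 ± 0.17 higher than with almonertinib (edgeR adjusted p = 0.000356) and 0.95 ± 0.17 higher than with paclitaxel (adjusted p = 0.000338), both on the log2 scale. If the single-drug folds multiplied, the combination would stand at 81.5 CPM, and the observed mean was 639 ± 26.7 CPM (SD, n = 3). This reckoning takes each drug in the combination at its single-drug dose, which the labels do not give. The interaction, in which both single-drug levels are taken from the combination and the control level is added back, was 2.98 ± 0.25 (edgeR adjusted p = 1.37e-07). PC9 almonertinib library 3 was the highest of its group for IGFBP2, IGFBP3, IGFBP4 and IGFBP6 alike, and without it the IGFBP6 change was −2.31. Its Spearman correlation between GC content and deviation from the mean over libraries was 0.496, against −0.278 and −0.277 in libraries 1 and 2. A link between the 2 traits was not tested. With 3 libraries against 3, an exact permutation test could not go below p = 0.1. The labels do not say that libraries came from separate cultures, so p-values measure the spread between libraries, which may be technical.

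In H1975 no fall of IGFBP6 was seen, and its level was far lower throughout. It stood at 108, 115 and 112 CPM with the combination, 144, 129 and 138 CPM with almonertinib and 90.4, 144 and 150.0 CPM with paclitaxel, against 105, 83.3 and 82.2 CPM in control cells. The combination and almonertinib libraries all lay above the controls, whereas paclitaxel library 1 lay among them. No share of all genes with such a separation is given here, so it is not read as a rise. The log2 fold changes were 0.29 ± 0.18 with the combination (edgeR adjusted p = 0.395), 0.59 ± 0.18 with almonertinib (adjusted p = 0.134) and 0.49 ± 0.18 with paclitaxel (adjusted p = 0.385), none of which passed the threshold of 0.05. With the dependence of each library on transcript length and GC content removed, a fit added after seeing the data, the combination (0.51, edgeR adjusted p = 0.0221) and almonertinib (0.57, adjusted p = 0.0172) passed. The comparisons of the combination with each single drug gave −0.30 ± 0.18 against almonertinib (adjusted p = 0.539) and −0.20 ± 0.18 against paclitaxel (adjusted p = 0.632), and the interaction gave −0.79 ± 0.25 (edgeR adjusted p = 0.225), which was −0.98 without paclitaxel library 1 (adjusted p = 0.0447).

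The treatment effect on IGFBP6 differed between the lines. PC9 minus H1975, it was −1.23 ± 0.27 for the combination (edgeR adjusted p = 0.00228), −2.64 ± 0.27 for almonertinib (adjusted p = 1.82e-07) and −2.37 ± 0.27 for paclitaxel (adjusted p = 4.59e-06). In control cells IGFBP6 was 3.75 ± 0.21 higher in PC9 than in H1975 on the log2 scale (adjusted p = 3.86e-14), with means of 1217 ± 229 CPM in PC9 and 90.2 ± 12.9 CPM in H1975 (SD, n = 3 each). In order of mean level, the groups ran PC9 control, combination, paclitaxel, almonertinib, then H1975 almonertinib, paclitaxel, combination, control. Among these neighbours the libraries overlapped between PC9 paclitaxel and almonertinib, between H1975 almonertinib and paclitaxel, and between H1975 paclitaxel and combination.

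IGFBP4, a binding protein that PAPPA cuts and that is mostly known as an inhibitor of IGF action, showed small differences with treatment in both lines. In PC9 it stood at 93.0, 90.9 and 99.3 CPM with the combination, 85.0, 77.5 and 114 CPM with almonertinib and 82.3, 75.7 and 80.7 CPM with paclitaxel, against 96.5, 94.1 and 103 CPM in control cells. Only the paclitaxel group lay clear of the controls, all 3 of its libraries being below them. How many of all genes did so is not given here, and nothing is read from it. With paclitaxel 28% of all genes tested in PC9 were lower than in control (edgeR adjusted p under 0.05).

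With paclitaxel IGFBP4 fell by 0.32 ± 0.11 on the log2 scale in PC9 (edgeR adjusted p = 0.026), but this small call was not stable. It was lost with a stricter filter on low counts (adjusted p = 0.0521), in one fit of all 24 libraries (adjusted p = 0.211) and with the length and GC trend removed (−0.09, adjusted p = 0.239), and without control library 3 or any 1 paclitaxel library (−0.32 to −0.26, edgeR adjusted p between 0.0562 and 0.116). The PC9 paclitaxel libraries had a Spearman correlation of 0.283 ± 0.0264 (SD, n = 3) between transcript length and deviation from the mean over libraries, against −0.174 ± 0.0512 in the controls, and −0.533 ± 0.0985 for GC content against 0.247 ± 0.116. The change was −0.06 ± 0.11 with the combination (edgeR adjusted p = 0.706) and −0.08 ± 0.11 with almonertinib (adjusted p = 0.561). Without almonertinib library 3 the almonertinib value was −0.24 (edgeR adjusted p = 0.00861), combination against almonertinib was 0.20 (adjusted p = 0.0432) and the interaction 0.51 (adjusted p = 0.000331). Between combination and paclitaxel it was 0.26 ± 0.11 (adjusted p = 0.0696), and the interaction was 0.34 ± 0.16 (edgeR adjusted p = 0.0912).

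In H1975 IGFBP4 stood at 16.3, 13.1 and 13.8 CPM with the combination, 21.4, 13.3 and 16.0 CPM with almonertinib and 14.8, 23.6 and 24.2 CPM with paclitaxel, against 25.2, 25.1 and 15.3 CPM in control cells. The third control library lay among the treated ones, so no group stood apart. The log2 fold changes were −0.61 ± 0.23 with the combination (edgeR adjusted p = 0.181), −0.39 ± 0.23 with almonertinib (adjusted p = 0.668) and −0.07 ± 0.23 with paclitaxel (adjusted p = 1). The combination passed the threshold in a fit of only the groups compared (−0.61, edgeR adjusted p = 0.0304) and with the trend removed (−0.44, adjusted p = 0.045). Between controls IGFBP4 was 2.17 ± 0.20 higher in PC9 than in H1975 (edgeR adjusted p = 5.97e-10). Every PC9 library lay above every H1975 library, but the share of all genes that separate so is not given here. Between controls 34.9% of all genes tested were called higher in PC9. PC9 minus H1975, the treatment effects on IGFBP4 were 0.55 ± 0.27 for the combination (adjusted p = 0.167), 0.29 ± 0.27 for almonertinib (adjusted p = 0.506) and −0.24 ± 0.27 for paclitaxel (edgeR adjusted p = 0.57), none of which passed. Without H1975 control library 3 the combination value was 0.75 (edgeR adjusted p = 0.0477).

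Over the 2 tested members, 1 was called in PC9 with the combination, where 50.7% of all genes tested were called. With almonertinib 1 was called, against 56.7% of all genes, and with paclitaxel 2 were called, against 55% of all genes. Of the same 2, 1 was called between combination and almonertinib (20.1% of all genes), 1 between combination and paclitaxel (44.1%) and 1 in the interaction (45.5%). In H1975 none was called with the combination (2.46% of all genes), almonertinib (1.95%) or paclitaxel (0.64%), nor in the interaction (0.672%); between the combination and either single drug edgeR called 0% of all genes. Between the lines 1 member was called for the combination (18% of all genes), almonertinib (16.6%) and paclitaxel (17.1%), and both in control cells (68.7%). With 2 genes tested, these counts are no result about the members as a set.

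IGFBP3, the main IGF carrier of blood and a gene known to respond to many growth and stress signals, stood higher in PC9 with every treatment. It measured 124, 71.4 and 82.3 CPM with the combination, 70.5, 41.6 and 112 CPM with almonertinib and 78.5, 101 and 69.3 CPM with paclitaxel, against 13.6, 20.3 and 18.0 CPM in control cells. The lowest treated library stood above the highest control, and the 3 treated groups overlapped one another. The log2 fold change was 2.42 ± 0.29 with the combination, 2.13 ± 0.29 with almonertinib and 2.25 ± 0.29 with paclitaxel. Treated libraries all above the controls were found for 30.8% of all genes with the combination, 26.9% with almonertinib and 33.6% with paclitaxel, and nothing is read from this since IGFBP3 was chosen for such differences. Had the single-drug folds multiplied at unchanged doses, IGFBP3 would have reached 358 CPM with the combination. The observed mean was 92.5 ± 27.6 CPM (SD, n = 3), an interaction of −1.95 ± 0.39.

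In H1975 the IGFBP3 level turned on single libraries. It measured 31.4, 42.0 and 84.3 CPM with the combination, 34.2, 14.7 and 58.1 CPM with almonertinib and 23.6, 27.1 and 23.7 CPM with paclitaxel, against 24.5, 19.0 and 102 CPM in control cells. The third library was the highest of the combination, almonertinib and control groups, at 2.30, 2.38 and 4.69 times the mean of the other 2 libraries, but at 0.934 times in the paclitaxel group. The log2 fold changes of 0.09 ± 0.55, −0.47 ± 0.55 and −0.99 ± 0.56 with combination, almonertinib and paclitaxel became 1.27, 0.70 and 0.18 without control library 3, and 0.79, 0.11 and 0.23 without the third library of every group. That control library also differed in GC trend, with a Spearman correlation of −0.625 against 0.305 and 0.402 in the other 2 controls. With the trend removed the IGFBP3 changes were −0.0375 with the combination, −0.46 with almonertinib and −1.04 with paclitaxel. In control cells IGFBP3 was −1.50 ± 0.50 in PC9 relative to H1975 on the log2 scale; it was −0.34 without that library and −2.05 with the trend removed.

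Ordered by mean, the IGFBP3 groups ran PC9 combination, paclitaxel, almonertinib, H1975 combination, control, almonertinib, paclitaxel, and last PC9 control. Libraries of neighbouring groups overlapped at every step but the last. PC9 minus H1975, the treatment effects were 2.31 ± 0.69 for the combination, 2.56 ± 0.70 for almonertinib and 3.24 ± 0.71 for paclitaxel. Without H1975 control library 3 they were 1.15 for the combination, 1.405 for almonertinib and 2.08 for paclitaxel.

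IGFBP2, a binding protein common in fetal tissue and tumours that can also bind integrins, showed the reverse division of the lines: lower with treatment in H1975 and little moved in PC9. In H1975 it measured 97.4, 105 and 87.1 CPM with the combination, 126, 106 and 172 CPM with almonertinib and 79.8, 153 and 168 CPM with paclitaxel, against 269, 244 and 198 CPM in control cells. All 9 treated libraries were below the 3 controls. The log2 fold change was −1.31 ± 0.24 with the combination, −0.83 ± 0.24 with almonertinib and −0.84 ± 0.24 with paclitaxel. Treated libraries all below the controls were found for 14.1% of all genes with the combination, 4.41% with almonertinib and 6.85% with paclitaxel, and nothing is read from this either.

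In PC9 IGFBP2 measured 389, 391 and 404 CPM with the combination, 421, 433 and 642 CPM with almonertinib and 444, 429 and 468 CPM with paclitaxel, against 482, 407 and 436 CPM in control cells. The combination libraries lay just under the controls, from which nothing is read, and the single-drug groups overlapped the controls. The log2 fold change was −0.17 ± 0.13 with the combination, 0.18 ± 0.13 with almonertinib and −0.01 ± 0.13 with paclitaxel, and the almonertinib value was −0.03 without library 3. The paclitaxel value was 0.20 with the length and GC trend removed. PC9 minus H1975, the effects were 1.14 ± 0.30 for the combination, 0.99 ± 0.30 for almonertinib and 0.84 ± 0.30 for paclitaxel. Every PC9 library stood above every H1975 library, and between controls the difference was 0.90 ± 0.21. Nothing is read from this, since IGFBP2 was chosen for differing between the lines. Ordered by mean, IGFBP2 ran PC9 almonertinib, paclitaxel, control, combination, then H1975 control, almonertinib, paclitaxel, combination, with overlap among the first 3 PC9 groups and among the H1975 treated groups.

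**Figure D2:**
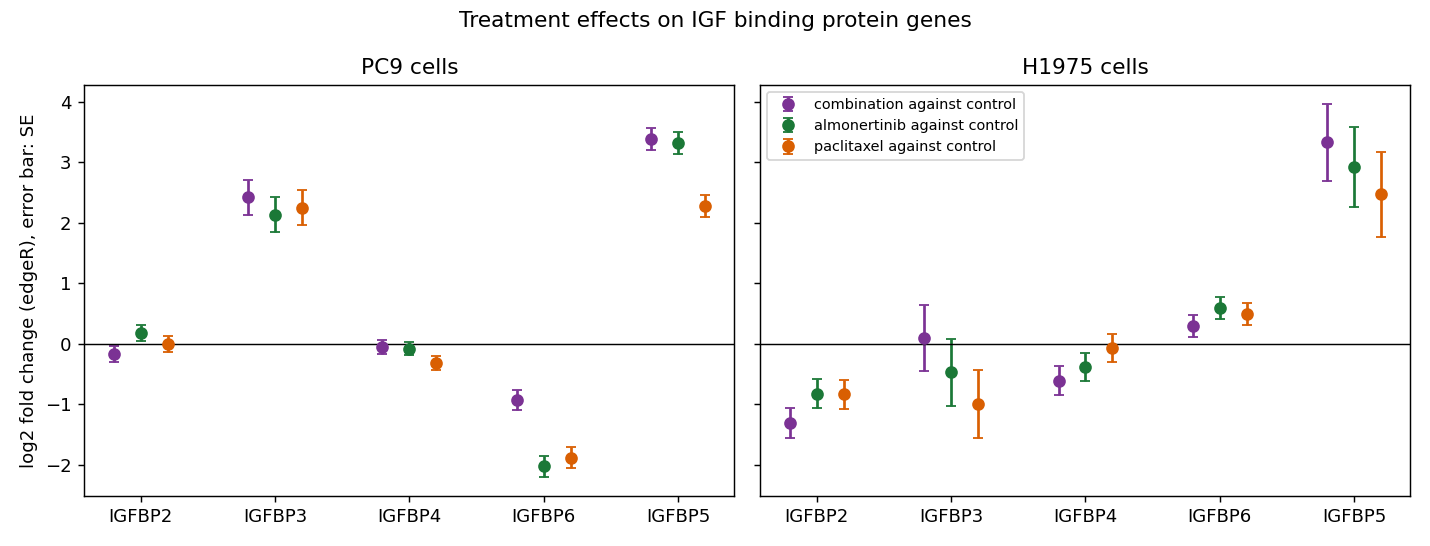
Log2 fold change against the control of the same line (vertical axis; edgeR, error bar SE) of 5 binding protein genes (horizontal axis) for combination, almonertinib and paclitaxel, in PC9 (left) and H1975 (right), 3 libraries a group. IGFBP3 and IGFBP5 stand above 0 and IGFBP6 below 0 in PC9 for all 3 treatments, while in H1975 IGFBP2 stands below 0 and IGFBP6 slightly above. IGFBP5 stands above 0 in H1975 as well, there on few counts.

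IGFBP7, a secreted protein of vessel walls and stroma, gave 11 counts in all, in 7 of 24 libraries: 1 count in PC9 and 10 in H1975, where no library had over 4. It did not pass the filter on low counts, so no fold change is given. Over the 12 libraries of a line, 3 counts correspond to 0.0123 CPM in PC9 and 0.0131 CPM in H1975 (counting error only). Of the binding protein genes outside the members, IGFBP1, best known from liver, was as rare, with 14 counts in PC9 and 0 in H1975, and the related IGFBPL1 had 220 counts in all.

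IGFBP5, which binds matrix as well as ligand and is another PAPPA substrate, rose in PC9 with each treatment. It measured 74.3, 74.4 and 66.3 CPM with the combination, 74.1, 68.4 and 60.3 CPM with almonertinib and 34.7, 35.4 and 30.3 CPM with paclitaxel, against 4.13, 8.26 and 8.50 CPM in control cells. Combination and almonertinib libraries overlapped, paclitaxel lay between them and the controls, and no treated library overlapped the controls. Treated libraries lay all above the controls for 30.8% of all genes with the combination, 26.9% with almonertinib and 33.6% with paclitaxel. The log2 fold change was 3.39 ± 0.18 with the combination (edgeR adjusted p = 6.96e-10), 3.31 ± 0.18 with almonertinib (adjusted p = 3.42e-10) and 2.27 ± 0.18 with paclitaxel (adjusted p = 1.07e-07). The combination differed from paclitaxel by 1.12 ± 0.15 (edgeR adjusted p = 3.06e-05) and from almonertinib by 0.07 ± 0.15 (adjusted p = 0.766). Its interaction of −2.20 ± 0.23 (edgeR adjusted p = 2.7e-06) had the sign opposite to that of IGFBP6.

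In H1975 IGFBP5 was nearly silent, with 46 counts over the 3 combination libraries, 38 with almonertinib and 25 with paclitaxel, against 5 in the controls. Per library total this is 10.9 times the control with the combination (95% exact binomial interval 4.35 to 35.2, counting error only), 8.16 times with almonertinib (3.21 to 26.6) and 5.75 times with paclitaxel (2.16 to 19.2). The fitted log2 changes were 3.33 ± 0.64 (edgeR adjusted p = 0.0127), 2.93 ± 0.66 (adjusted p = 0.0319) and 2.47 ± 0.70 (adjusted p = 0.183) in the same order. The combination call was lost without control library 2 (3.15, adjusted p = 0.0699), combination library 2 (3.25, adjusted p = 0.0594) or combination library 3 (3.23, adjusted p = 0.0666). The almonertinib call was lost without almonertinib library 2 (2.63, adjusted p = 0.124) and without control library 1 (3.59, adjusted p = 0.0746), 2 (2.74, adjusted p = 0.145) or 3 (2.64, adjusted p = 0.102). Without repeat 3 of every H1975 group neither was called (combination 3.02, edgeR adjusted p = 0.111; almonertinib 2.92, adjusted p = 0.179). PC9 minus H1975, the effects on IGFBP5 were 0.04 ± 0.80, 0.37 ± 0.82 and −0.19 ± 0.81 for combination, almonertinib and paclitaxel, with edgeR adjusted p of 1, 0.82 and 0.913. Each of these differences was smaller than its SE.

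Levels of different genes compare only per length, so CPM were divided by the length of each gene's principal transcript in kilobases (kb). On that scale IGFBP6 made up most of the summed level of IGFBP1 to IGFBP7 in PC9 controls, and IGFBP2 in H1975 controls. The IGFBP6 share in PC9 was 59.6 ± 0.512% with the combination, 36.7 ± 1.66% with almonertinib and 42.4 ± 0.660% with paclitaxel, against 73.9 ± 5.0% in controls (SD, n = 3). The IGFBP2 share in PC9 was 30.0 ± 0.986%, 50.8 ± 1.70% and 46.0 ± 1.54% in the same order, against 22.3 ± 4.69%. With either single drug IGFBP2 therefore had the larger share of the family.

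In H1975 the order of the 2 mean shares also differed between treated and control cells, in the other direction. Almonertinib library 3 kept the order of the controls, with 119.9 CPM per kb for IGFBP2 and 118 for IGFBP6. IGFBP6 had 49.6 ± 1.55% with the combination, 50.7 ± 6.49% with almonertinib and 49.5 ± 1.83% with paclitaxel, against 28.1 ± 1.65% in controls, and IGFBP2 had 35.0 ± 4.08%, 39.6 ± 4.06% and 41.0 ± 3.58%, against 60.2 ± 6.43%. The summed level in PC9 was 917 ± 33.6 CPM per kb with the combination, 686 ± 191 with almonertinib and 674 ± 7.83 with paclitaxel, against 1401 ± 179.6 in controls. In H1975 it was 192 ± 9.81, 234 ± 37.2 and 223 ± 63.7 CPM per kb, against 273 ± 22.5. IGFBP5, despite its large fold change in PC9, reached at most a mean share of 1.68% there.

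**Figure D3:**
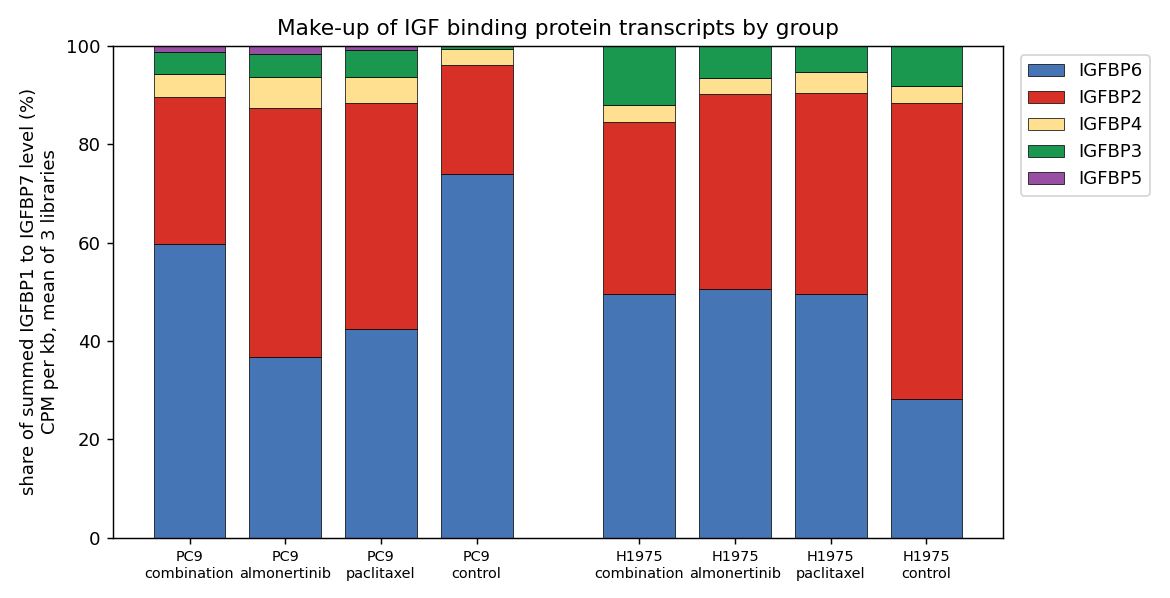
Share of each binding protein gene (stacked bars, percent) in the summed level of IGFBP1 to IGFBP7, in CPM per kb of principal transcript, mean of 3 libraries, for the 8 groups; IGFBP1 and IGFBP7 are too rare to show. IGFBP6 takes 73.9% in PC9 controls and less in each treated PC9 group, whereas in H1975 it takes 28.1% in controls and more in each treated group.

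The other genes of the IGF axis were followed as a list of 27 (ligands, receptors, surface partners, adaptors, proteases and their inhibitors, and the remaining IGFBP genes), of which 18 were abundant enough to test within each line. In PC9 8 were higher and 4 lower with the combination (24.7% and 26% of all genes), 5 higher and 8 lower with almonertinib (28.9% and 27.8%), and 9 higher and 3 lower with paclitaxel (27% and 28%). The median log2 change of the list was 0.27, −0.08 and 0.38 in that order, against 0.00, 0.03 and −0.01 over all genes tested. In H1975 3 were higher with the combination (1.77% of all genes higher, 0.697% lower) and 1 with almonertinib (1.35% higher, 0.599% lower). None was called with paclitaxel by edgeR (0.446% of all genes higher, 0.194% lower), where 8 had an unadjusted p under 0.05 and DESeq2 called 1.

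Among the ligands, IGF2 was abundant enough to test only in PC9. It stood at 4.63 ± 0.397 CPM with the combination, 2.82 ± 0.298 with almonertinib and 5.96 ± 0.584 with paclitaxel, against 4.69 ± 0.659 in controls (SD, n = 3). It fell with almonertinib (−0.72 ± 0.18, edgeR adjusted p = 0.00224). IGF1 had 1 count in all and INS had 0.

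Among the receptors, INSR, the insulin receptor gene, rose in PC9 with each treatment. It averaged 23.4 ± 1.44 CPM with the combination, 15.6 ± 3.64 with almonertinib and 18.6 ± 2.56 with paclitaxel, against 10.8 ± 0.218 in controls. Its log2 change was 1.11 ± 0.16, 0.54 ± 0.16 and 0.76 ± 0.16 in that order, with edgeR adjusted p of 2.24e-05, 0.00799 and 0.000759. IGF1R averaged 51.4 ± 3.23 CPM with the combination, 34.2 ± 6.82 with almonertinib and 48.9 ± 2.58 with paclitaxel, against 34.0 ± 1.46 in controls. It rose with the combination (0.59 ± 0.12, edgeR adjusted p = 0.000694) and paclitaxel (0.50 ± 0.12, adjusted p = 0.00232), and the almonertinib value was 0.01 ± 0.12 (adjusted p = 0.945), which became 0.28 (adjusted p = 0.0105) with the length and GC trend removed. IGF2R, which takes up and degrades IGF2, fell with almonertinib (−0.77 ± 0.11, edgeR adjusted p = 2.11e-05). In H1975 with the combination, IGF1R changed by 0.58 ± 0.19 (edgeR adjusted p = 0.112) and INSR by 0.69 ± 0.20 (adjusted p = 0.0805). Neither was called, but DESeq2 called both (adjusted p = 0.0453 and 0.017). With paclitaxel in H1975 the values were −0.29 ± 0.19 (edgeR adjusted p = 0.833) and −0.29 ± 0.20 (adjusted p = 0.863). PC9 minus H1975, the combination effect on IGF1R was −0.0005 ± 0.22.

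Adaptors downstream of the receptors moved in both directions. GRB10, which binds and restrains IGF1R and INSR, averaged 174 ± 7.11 CPM with the combination, 36.5 ± 1.31 with almonertinib and 122 ± 6.13 with paclitaxel, against 356 ± 51.8 in PC9 controls. Its log2 change was −1.04 ± 0.10, −3.28 ± 0.11 and −1.57 ± 0.10 in that order, with edgeR adjusted p of 3.29e-07, 8.66e-13 and 9.84e-09. It was lowest with almonertinib and, like IGFBP6, least lowered with both drugs, and its interaction was 3.81 ± 0.14 (edgeR adjusted p = 4.24e-11). IRS1 fell with the combination (−1.08 ± 0.16, adjusted p = 4.69e-05) and almonertinib (−0.79 ± 0.16, edgeR adjusted p = 0.00058). IRS2 rose with the combination (0.58 ± 0.10, adjusted p = 0.000267) and paclitaxel (0.59 ± 0.10, edgeR adjusted p = 0.000255).

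Of the surface partners, ITGA5, whose integrin can bind IGFBP1, fell in PC9 with the combination (−0.84 ± 0.13, edgeR adjusted p = 7.45e-05), almonertinib (−1.73 ± 0.14, adjusted p = 2.88e-08) and paclitaxel (−1.25 ± 0.13, adjusted p = 2.86e-06). LRP1, an endocytic receptor described for IGFBP3, rose with the combination (0.82 ± 0.11, edgeR adjusted p = 1.43e-05). TMEM219, a death receptor described for IGFBP3, rose with almonertinib (0.48 ± 0.14, adjusted p = 0.00679), and its fall with paclitaxel (−0.39 ± 0.14, edgeR adjusted p = 0.0238) was lost with the trend removed (−0.12, adjusted p = 0.358). ITGB1 rose with almonertinib (0.58 ± 0.14, adjusted p = 0.00216), a call lost with the trend removed (0.13, edgeR adjusted p = 0.106), and with paclitaxel (0.91 ± 0.14, adjusted p = 8.7e-05).

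PAPPA, the protease that cuts IGFBP4 and IGFBP5, was rare but moved with paclitaxel. It averaged 0.649 ± 0.234 CPM with the combination, 0.287 ± 0.0620 with almonertinib and 3.38 ± 0.317 with paclitaxel, against 0.750 ± 0.229 in PC9 controls. It rose with paclitaxel (2.12 ± 0.28, edgeR adjusted p = 1.9e-05) and fell with almonertinib (−1.42 ± 0.40, adjusted p = 0.00659), and the combination value was −0.23 ± 0.34 (edgeR adjusted p = 0.594). The fall rests on few reads, 18 counts over the almonertinib libraries against 37 over the controls. Between combination and paclitaxel the log2 change of PAPPA was −2.36 ± 0.27 (edgeR adjusted p = 5.12e-06). STC2, a secreted inhibitor of PAPPA, averaged 95.2 ± 10.5 CPM with the combination, 79.3 ± 1.78 with almonertinib and 230.4 ± 7.94 with paclitaxel, against 168 ± 24.0 in PC9 controls. It fell with the combination (−0.82 ± 0.10, edgeR adjusted p = 7e-06) and almonertinib (−1.08 ± 0.10, adjusted p = 2.89e-07) and rose with paclitaxel (0.44 ± 0.10, adjusted p = 0.00195).

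In PC9 9 of the 18 list genes were higher and 0 lower with the combination than with almonertinib (10.3% and 9.74% of all genes), and 6 were higher and 4 lower than with paclitaxel (21.7% and 22.4%). In the interaction 4 were higher and 2 lower (22.1% and 23.4% of all genes). Against almonertinib the smallest p-values belonged to GRB10 (2.24 ± 0.10, edgeR adjusted p = 1.2e-09), LRP1 (0.86 ± 0.11, adjusted p = 4.81e-05) and IGF2R (0.74 ± 0.11, adjusted p = 0.000223). Against paclitaxel STC2 (−1.26 ± 0.10, edgeR adjusted p = 2.89e-07) and IRS1 (−1.19 ± 0.16, adjusted p = 2.8e-05) were lower. TMEM219 (0.84 ± 0.14, edgeR adjusted p = 0.000153) and LRP1 (0.61 ± 0.11, adjusted p = 0.000319) were higher. ITGA5 had an interaction of 2.14 ± 0.19 (edgeR adjusted p = 3.17e-07) and ITGB1 one of −1.23 ± 0.20 (adjusted p = 0.000152).

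In H1975 the called list genes with the combination were IGFBP5, described above, GRB10 (0.61 ± 0.15, edgeR adjusted p = 0.042) and HTRA1, a secreted protease that cuts binding proteins (0.80 ± 0.20, adjusted p = 0.0486). With the repeat number as a block GRB10 (0.60, adjusted p = 0.0732) and HTRA1 (0.81, edgeR adjusted p = 0.0784) were not called. Leaving out any 1 of the 6 libraries ended the GRB10 call, with edgeR adjusted p between 0.0521 and 0.253, and HTRA1 stayed called only without control library 3. STC2 was the 1 list gene called in the interaction, where 0.259% of all genes were higher and 0.413% lower, with 0.91 ± 0.19 (edgeR adjusted p = 0.0433), which was lost on leaving out any 1 of the 12 libraries other than almonertinib library 1. None was called between the combination and almonertinib, where 7 had an unadjusted p under 0.05 and DESeq2 called 1, or between the combination and paclitaxel, where 8 did and DESeq2 called 6.

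**Figure D4:**
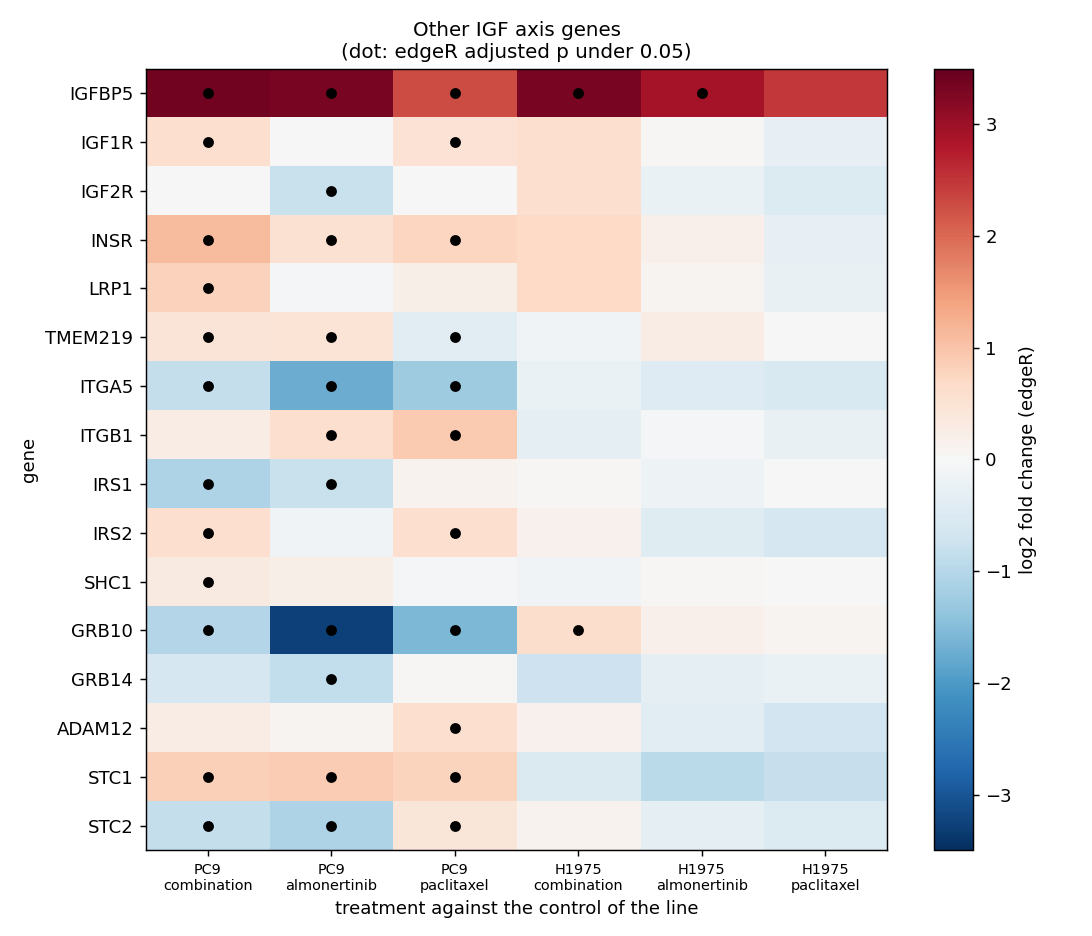
Log2 fold change against the control of the line (colour, edgeR) of the 16 IGF axis genes outside the members that were tested in both lines (down the page), for combination, almonertinib and paclitaxel in PC9 and H1975 (across); a dot marks an edgeR adjusted p under 0.05. Dots are spread over the PC9 columns, where GRB10 is lowest with almonertinib (−3.28) and IGFBP5 highest with the combination (3.39), and 3 dots fall in the H1975 columns.

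Between the lines, 20 list genes could be tested. In controls 12 were higher and 4 lower in PC9 than in H1975 (34.9% and 33.8% of all genes). IGFBP5 (6.39 ± 0.43, edgeR adjusted p = 1.68e-12), GRB10 (1.89 ± 0.13, adjusted p = 1.42e-12) and ADAM12, a metalloprotease that cuts IGFBP3 (2.77 ± 0.20, adjusted p = 6.69e-12), were higher in PC9. HTRA1 (−4.50 ± 0.30, edgeR adjusted p = 1.71e-12), STC1 (−2.18 ± 0.37, adjusted p = 1.47e-05) and IRS1 (−0.82 ± 0.15, adjusted p = 4.87e-05) were lower in PC9. PAPPA was also higher in PC9 (4.54 ± 0.74, edgeR adjusted p = 1.14e-05), where H1975 controls had 2 counts in all.

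The treatment effects of 4 list genes were lower and 0 higher in PC9 than in H1975 for the combination (11% and 6.99% of all genes). For almonertinib 1 was higher and 4 lower (5.53% and 11%), and for paclitaxel 7 were higher and 2 lower (9.9% and 7.21%). GRB10 differed for all 3 treatments, by −1.66 ± 0.17, −3.46 ± 0.18 and −1.66 ± 0.17 in that order, with edgeR adjusted p of 6.72e-07, 7.05e-13 and 1.98e-06. For INSR the difference was 1.06 ± 0.25 with paclitaxel (edgeR adjusted p = 0.0071) and 0.41 ± 0.25 with the combination (adjusted p = 0.262).

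Genes most alike to each member in pattern were taken as the 3 protein-coding genes with the highest Pearson r over 24 libraries, on log2(CPM + 0.5) centred on the mean of each line, among 8439 genes. Libraries share depth and length and GC trends with every gene, so r is a description. IGFBP6 was most like ISG20 (r = 0.959), an interferon-induced exonuclease gene, C15orf48 (0.937) and RGS9 (0.900), a regulator of G protein signalling. Within PC9 its r with ISG20 was 0.991 and within H1975 0.652. IGFBP3 was most like SRD5A3 (0.880), a polyprenol reductase gene, EGLN3 (0.871), an oxygen-sensing hydroxylase gene, and NDRG1 (0.834), a stress-responsive gene. IGFBP2 was most like FAM43A (0.865), TSPAN4 (0.865), a tetraspanin gene, and GPC1 (0.861), a glypican gene, and IGFBP4 most like POLR1H (0.923), a subunit gene of RNA polymerase I, RCE1 (0.916) and RNF167 (0.915). IGFBP4 kept values over 0.9 with POLR1H and RCE1 in both lines, while for FAM43A and GPC1 with IGFBP2 r was 0.558 and 0.466 in PC9, against 0.917 and 0.916 in H1975.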

How the data were processed

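The authors deposited 1 table of raw read counts for 19702 Ensembl genes in 24 libraries. Per the submitters' processing notes HISAT2 2.2.1, HTSeq and GRCh38 were used; version and settings of HTSeq, the annotation and the strand are not given in the sources used here. Per the labels' protocols, TRIzol RNA and a SMART-RNAseq kit were used. Antisense reads may therefore be counted in a gene.

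Here edgeR 4.0.16 (R 4.3.3) was fitted to the 12 libraries of a line (12796 genes kept by filterByExpr in PC9, 12345 in H1975) or to all 24 (13380 genes) for differences between lines. TMM factors lay between 0.84 and 1.14. The two-sided quasi-likelihood test was Benjamini-Hochberg adjusted within each comparison, with a threshold of 0.05. The SE of a log2 fold change is its size divided by the square root of F. CPM are counts scaled by library total and TMM factor. Detected genes numbered 13780 to 14502 per library, and no 2 libraries were identical (highest r 0.997). H1975 almonertinib library 1 stood apart from its group in GC content (Spearman 0.779, against −0.617 and −0.458).

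The members and the 27-gene list were chosen with earlier results of these data known. The rule named from the list, in each comparison, up to 3 rising and 3 falling called genes with the smallest p. It also named IGFBP1, IGFBP5, IGF1R, INSR, IRS1, IRS2, PAPPA and STC2. Not all values under this rule are printed, among them those of IRS1, IRS2 and STC2 for H1975 treatments against control. IGF2, INS, IGF1, IGFBPL1 and other values beside them were added after the values were seen. Other marker lists were endothelial (CDH5 the highest, at most 7.40 CPM in a group mean) and fibroblast (COL1A1 at most 22.2 CPM, COL1A2 at 0).

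Repeat numbers are not said to mark a shared culture or day. Deviations of same-numbered libraries correlated by over 0.1 in every pair between PC9 almonertinib and control (0.158, 0.133 and 0.464), PC9 paclitaxel and control (0.138, 0.136 and 0.155) and H1975 combination and control (0.127, 0.182 and 0.384). Alternatives were RLE factors, no filter, a stricter filter (a mean of 5 CPM, and 1 CPM in at least 3 libraries), DESeq2 1.42.0, the repeat number as a block, all 24 libraries in 1 fit, only the groups compared, and each library left out. Added after seeing the data were a spline (5 degrees of freedom) removing length and GC dependence, and H1975 without repeat 3. Promoter sequences are from RefSeq (GRCh38.p14).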

Additional observations from a re-analysis of the deposited data

Results flagged for a closer look

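Among IGFBP6 and the list genes named by rule, the response differed between the lines for 16 gene and treatment pairs, tested as PC9 minus H1975 in edgeR with adjustment over all genes. The rule names called genes, so this number is no result in itself. IGFBP4, also tested, was called for no treatment. Of all genes tested, 16.6% were called for almonertinib, 17.1% for paclitaxel and 18% for the combination. The doses of the single drugs differed between the lines, so line and dose cannot be told apart. IGFBP6 differed for almonertinib (−2.637 ± 0.271, edgeR adjusted p = 1.82e-07), paclitaxel (−2.372 ± 0.270, adjusted p = 4.59e-06) and the combination (−1.233 ± 0.267, adjusted p = 0.00228). It fell in PC9 and was not called in H1975. GRB10 differed for almonertinib (−3.46 ± 0.179), paclitaxel (−1.66 ± 0.175) and the combination (−1.655 ± 0.175).

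STC2 differed for almonertinib (−0.7812 ± 0.168, edgeR adjusted p = 0.00218), for paclitaxel in the other direction (0.9301 ± 0.168, adjusted p = 0.00101) and for the combination (−0.9492 ± 0.168, adjusted p = 0.000343). IRS1 differed for the combination (−1.128 ± 0.217, edgeR adjusted p = 0.000811) and IRS2 for paclitaxel (1.178 ± 0.254, adjusted p = 0.00401). ITGA5 differed for almonertinib (−1.295 ± 0.217, edgeR adjusted p = 0.000162). Less stable were ITGA5 for paclitaxel (−0.6964 ± 0.216, edgeR adjusted p = 0.0296), IGF1R for paclitaxel (0.8028 ± 0.218, adjusted p = 0.0152), INSR for paclitaxel (1.062 ± 0.251, adjusted p = 0.0071) and STC1 for almonertinib (1.802 ± 0.51, adjusted p = 0.0171). The IGF1R call was lost without H1975 control library 3 (0.72, adjusted p = 0.0501), as was that of STC1 (1.31, adjusted p = 0.0696) and that of ITGA5 (−0.67, edgeR adjusted p = 0.0698). STC1 was also lost without PC9 almonertinib library 1 (1.53, edgeR adjusted p = 0.0633) or PC9 control library 1 (1.56, adjusted p = 0.0559). ITGA5 was also lost without any 1 of H1975 paclitaxel libraries 2 and 3, PC9 control libraries 2 and 3 and PC9 paclitaxel libraries 1 and 2, with edgeR adjusted p between 0.051 and 0.104. The INSR call was lost without repeat 3 of H1975 (0.81, edgeR adjusted p = 0.0669), as were the paclitaxel calls of IGF1R (0.70, adjusted p = 0.0713) and ITGA5 (−0.63, adjusted p = 0.111).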

How the results depend on the processing

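The IGFBP6 calls in PC9 and between the lines held under every alternative run, with log2 changes of −2.31 to −1.89 for almonertinib, −2.02 to −1.59 for paclitaxel and −1.07 to −0.82 for the combination against control. With the length and GC dependence removed, IGFBP4 was called in PC9 with almonertinib (−0.1893), IGFBP6 in H1975 with almonertinib (0.5665) and the combination (0.5115), and IGFBP4 in H1975 with the combination (−0.4439; −0.6082 with only the groups compared). In the same fit IGFBP2 was 0.2045 for PC9 paclitaxel against control, −0.4684 for PC9 combination against paclitaxel and 0.841 for the combination effect of PC9 minus H1975. There SHC1 in PC9 with paclitaxel was 0.1376 and IRS1 in H1975 −0.3041 for the combination against control and −0.376 against paclitaxel, each with a sign opposite to the fit without it. IGFBP4 in PC9 with paclitaxel was −0.2609 with the stricter filter, −0.09242 with the dependence removed and −0.2982 in 1 fit of 24 libraries, and was called in none of them. For PC9 combination against paclitaxel IGFBP4 passed with the replicate block (0.2624) and with only the groups compared (0.2633), and its PC9 interaction passed with the block (0.3551). The cause was not tested.

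The number of list genes called in H1975 was less stable. With almonertinib (1) it was 0 with the stricter filter, with the replicate block, with only the groups compared and without repeat 3, and 2 with the dependence removed. With paclitaxel (0) it was 1 in DESeq2 and in the fit of 24 libraries and 2 with the dependence removed. With the combination (3) it was 1 without a filter and with the block, 6 in DESeq2 and with the dependence removed, 7 in the fit of 24 libraries and with only the groups compared, and 0 without repeat 3. Between combination and almonertinib (0) it was 1 in DESeq2 and in the fit of 24 libraries. Between combination and paclitaxel (0) it was 3 with RLE factors and with the dependence removed, 2 without a filter, 6 in DESeq2 and with only the groups compared, and 7 in the fit of 24 libraries. For the interaction (1) it was 2 with RLE factors and with the dependence removed, 4 in DESeq2 and in the fit of 24 libraries, and 0 with the block and without repeat 3. For the paclitaxel effect between lines (9) it was 3 without H1975 repeat 3, and for the combination effect (4) it was 8 with the dependence removed.

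Leaving out single libraries moved IGFBP4 in PC9 between −0.2447 and 0.0322 for almonertinib, −0.3457 and −0.2626 for paclitaxel, −0.08877 and 0.2047 for combination against almonertinib, 0.2308 and 0.5077 for the interaction, and 0.4283 and 0.7483 for the combination effect between lines. IGFBP6 in the H1975 interaction lay between −0.9841 and −0.6712. The IGFBP4 call with paclitaxel in PC9 was kept without control library 1 or 2, and lost without control library 3 or any 1 paclitaxel library (edgeR adjusted p between 0.0562 and 0.116). Counts of list genes ranged, in H1975, 0 to 2 for almonertinib, 0 to 4 for the combination, 0 to 5 against either single drug and 0 to 4 for the interaction, in PC9 6 to 11 for the interaction, and between lines 3 to 7 for almonertinib and 5 to 10 for paclitaxel.

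Whether the repeat number pairs libraries is not known. In the 3 pairs of groups named in the methods the block changed no call of a named gene other than GRB10 and HTRA1 in H1975. In H1975 almonertinib against control, same-numbered libraries correlated by 0.408, −0.491 and 0.572. There IGFBP5 was not called with the block (2.948, edgeR adjusted p = 0.0544). Depth limits IGFBP7 and PAPPA in both lines and IGFBP5 in H1975.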
